A study of Caenorhabditis elegans with 4 samples.

Results

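Broad REC-8 domains were examined in Caenorhabditis elegans, as the stretches of chromatin where the authors' combined peak list placed a single REC-8 peak at least 1 kb wide. They were chosen by peak width in that list, and 452 of its 5889 nuclear peaks met the limit of 1000 bp. The other 5437 peaks, from 146 to 994 bp wide, are called narrower peaks here. The domains made up 7.68% of the peaks and 31.9% of the base pairs under peaks.

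REC-8 is the meiotic kleisin, the subunit that closes the cohesin ring. Cohesin holds sister chromatids together, and in meiosis REC-8 cohesin sits along the chromosome axes until it is cleaved in the meiotic divisions. In the worm germline, cohesin with REC-8 is also needed for pairing, synapsis and repair between homologues. Chromatin immunoprecipitation followed by sequencing (ChIP-seq) shows where the protein is crosslinked to DNA.

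All 4 libraries came from fem-2(b245) hermaphrodites at 20 degrees Celsius, so the mutation is shared by every sample and there is no wild type among them. FEM-2 is a phosphatase that promotes male fates, spermatogenesis included. The stage is given as young adult with a germline, while the growth protocol describes gravid animals. Whole worms were ground, so the chromatin is from soma and germline together, and more cells carrying REC-8 cannot be told apart from more REC-8 per cell. The 2 immunoprecipitations used an affinity-purified rabbit polyclonal antibody against REC-8, and the values analysed were a peak list for each of them and the combined list. The 2 input libraries were not analysed here. No counts of reads were used, so the depth behind a peak is unknown. Nothing says that the replicates were separate cultures, so the spread between them may be technical.

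No statistical test was run. The domains were chosen by their width, overlap and score depend on width, and 2 replicates allow no exact test that could pass a threshold. All differences from the narrower peaks are therefore descriptions, with both values given.

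The domains were mostly little wider than the limit. Their median width was 1474.5 bp, with quartiles of 1213 and 2119 bp and a maximum of 11720 bp. There were 233 of 1000 to 1499 bp, 88 of 1500 to 1999 bp, 72 of 2000 to 2999 bp and 59 of 3 kb or more. Just inside the limit lay peaks of 1000 bp on chromosome V from 10712008, of 1001 bp on chromosome III from 10866135 and of 1002 bp on chromosome IV from 13607079, with combined scores of 4.04, 5.10 and 17.6. Just outside it lay peaks of 994 bp on chromosome III from 5267891, of 993 bp on chromosome I from 1051922 and of 991 bp on chromosome III from 8446471, with scores of 9.77, 11.0 and 148. The widths on the 2 sides differed by a few base pairs, and 1 of the narrower peaks had a score far above the other 5.

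The same limit selected very different parts of the replicate lists. In replicate 1, 218 of 1961 peaks (11.1%) were 1 kb or wider, against 2009 of 2026 (99.2%) in replicate 2. The mean was 1113.5 ± 1266 peaks (SD, n = 2). Of the 218 wide replicate 1 peaks, 202 (92.7%) overlapped a broad domain, and 198 of the 452 domains (43.8%) overlapped a wide replicate 1 peak. In replicate 2 a width of 1 kb did not distinguish peaks, and 380 of its 2009 wide peaks (18.9%) overlapped a domain.

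**Figure D1:**
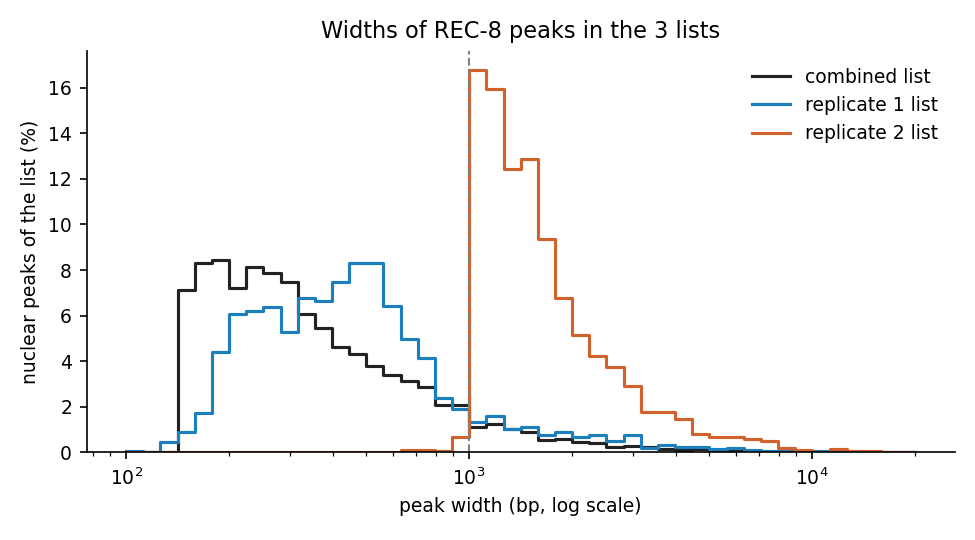
Distribution of peak widths on a log scale (x, bp) as the share of each list's nuclear peaks (y, %), with the limit of 1000 bp dashed. The combined and replicate 1 lists lie mostly below the limit, and 99.2% of the replicate 2 peaks lie above it.

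Most domains overlapped peaks of both replicate lists. The combined list stands for the same 2 immunoprecipitations, so this overlap is not an independent recovery of the domains. Of the 452 domains, 376 (83.2%) overlapped a peak of each replicate by at least 1 bp, where 23.1% of all combined peaks and 18.1% of narrower peaks did. Replicate 1 peaks overlapped 407 domains (90.0%), against 28.9% of all combined peaks. For replicate 2 the count was 419 domains (92.7%), against 50.9% of all. The domains in a single list were 31 (6.86%) in replicate 1 only and 43 (9.51%) in replicate 2 only. A further 2 domains (0.442%) had no peak in either. Among all combined peaks these shares were 5.76%, 27.8% and 43.3%. With only 1 replicate list used, the share with a replicate peak is thus the 92.7% or 90.0% above. The combined list was not remade, so the domains still rest on both replicates.

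A wide peak has more room to touch another, so the midpoints were also placed. The midpoint fell inside a replicate 1 peak in 342 domains (75.7%), against 26% of all combined peaks. It fell inside a replicate 2 peak in 418 domains (92.5%), against 50.6% of all. By this measure 68.6% of the domains were in both replicates. Replicate 1 peaks covered 71.2% of the base pairs of the domains and 26.5% of those of the narrower peaks. Replicate 2 peaks covered 92.0% and 61.4%.

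Sharing with replicate 1 was more frequent in each wider class up to 1999 bp, while that with replicate 2 had levelled off below the limit. Among combined peaks of 300 to 499 bp, 32.0% overlapped replicate 1 and 65.1% replicate 2. At 700 to 999 bp the shares were 74.4% and 91.6%, and at 1000 to 1499 bp 84.1% and 94.0%. The limit of 1 kb therefore did not mark a step in overlap. At 1500 to 1999 bp they were 97.7% and 94.3%, and at 2000 to 2999 bp they were lower, 93.1% and 86.1%. Midpoints inside a replicate 1 peak were likewise 88.6% and then 75% in these 2 classes. At 3 kb or more, 98.3% of the 59 domains overlapped replicate 1 and 93.2% replicate 2.

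**Figure D2:**
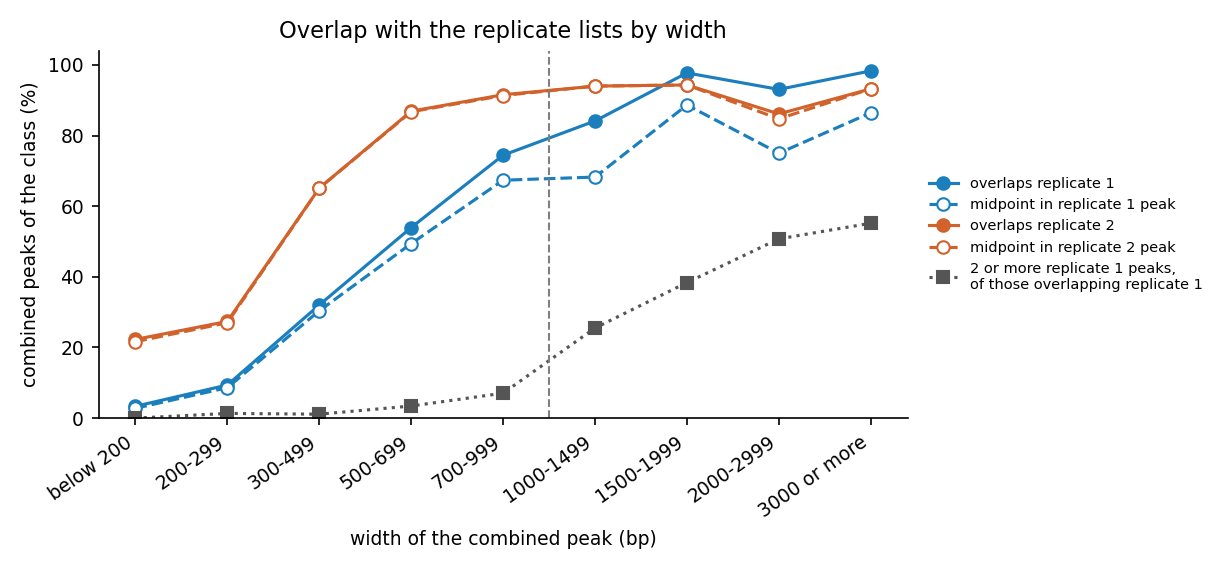
Share of combined peaks (y, %) by width class (x, bp) that overlapped each replicate list by 1 bp (filled), had their midpoint in a replicate peak (open), or, of those overlapping replicate 1, held 2 or more of its peaks (squares). The dashed line is the limit of 1 kb, and the overlap with replicate 2 was already 91.6% in the class just below it.

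The score is the peak caller's own value, and its scale is not given in any source used here. Domains had a median combined score of 35.7 (quartiles 19.5 and 92.9), against 7.54 for narrower peaks. No domain scored below 4.04, while the narrower peaks began at 1.31. The upper ends were alike, at 161.64 and 162.3. The relation of width to score within the domains depended on which list gave the score. The replicate score of a combined peak was the highest among the replicate peaks that overlapped it. A wider domain can overlap more of these, and domains over 1 replicate peak share its score. The Spearman rho of width was 0.08 with the combined score over 452 domains, 0.35 with the replicate 1 score over 407 and 0.38 with the replicate 2 score over 419. Over the 5437 narrower peaks the rho with the combined score was 0.62, and with the replicate scores it was 0.51 over 1292 peaks and 0.32 over 2580. These points share libraries and depth.

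Weak domains were also often in both replicates. Of the 117 domains scoring below 20, 53.8% overlapped both replicates, against 4.94% of the 4255 narrower peaks in that score range. Scores were not matched within the range. The median score of all narrower peaks was 7.54, and a score of 7.54 ranked 438 among the 452 domains. The narrower peaks below 20 thus lay lower in the range. Between 20 and 40 the shares were 83.7% of 123 domains and 38.3% of 554 narrower peaks. From 40 to 100 they were 99.1% of 114 domains and 82.9% of 374 narrower peaks, and at 100 or more both were near complete, at 98.98% and 99.2%. Midpoints inside a replicate 1 peak gave 59.0% and 9.75% below a score of 20, and 78.1% and 78.3% from 40 to 100. This measure was not free of width either. Over all combined peaks it rose from 2.78% below 200 bp to 88.6% at 1500 to 1999 bp. At scores of 100 or more the order of the midpoint shares was the other way, with 82.7% of domains and 97.6% of narrower peaks. The domains thus exceeded the narrower peaks by both measures in the score ranges below 40, and did not at 100 or more. How much of the excess came from differences in score within a range was not tested.

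The 4 domains tied at the highest score of the set, 161.64, differed in shape. On chromosome II, the 1994 bp domain from 4553914 to 4555907 held 2 replicate 1 peaks that covered 79.9% of it. The 1503 bp domain on chromosome IV from 8466874 to 8468376 held 1 replicate 1 peak of 996 bp. On the same chromosome the 4258 bp domain from 12021419 to 12025676 held 5 replicate 1 peaks over 48.2% of its length. The 5797 bp domain on chromosome I from 13609892 to 13615688 held 3, over 37.5%. All 4 lay wholly inside a single replicate 2 peak and reached a score of 3100 in both replicates, as did the 2 domains tied next at 161.55. These were 3234 bp on chromosome IV from 9066038 to 9069271 and 1322 bp on chromosome III from 9533570 to 9534891, and the second was named after its values were seen.

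Scores of 3100 or more, where the replicate scores pile up, were found in 45 of the 407 domains with a replicate 1 peak (11.1%) and in 92 of the 419 with a replicate 2 peak (22.0%). Among narrower peaks these were 4 of 1292 (0.310%) and 57 of 2580 (2.21%). In 37 domains both replicates reached 3100.

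Splitting of domains was seen in replicate 1, and replicate 2 could hardly show it. Of the 407 domains with a replicate 1 peak, 149 (36.6%) held 2 or more, where 11.2% of all combined peaks with a replicate 1 peak did. There were 103 with 2, 31 with 3, 8 with 4 and 4 with 5 replicate 1 peaks, and 1 each with 8, 10 and 17. Among narrower peaks 41 of 1292 (3.17%) held 2 and 0 held more. In replicate 2 only 1 of 419 domains was split, and 145 of the 149 domains split in replicate 1 had exactly 1 replicate 2 peak. However, 99.2% of replicate 2 peaks were 1 kb or wider, and the median domain was 1474.5 bp wide. Most domains thus had little room for 2 replicate 2 peaks. A longer peak has more room for several others. The share split was 25.5% at 1000 to 1499 bp and 55.2% at 3 kb or more, and 7.06% in the class of 700 to 999 bp just below the limit.

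The gaps within split domains were short. The 149 domains held 386 replicate 1 peaks with 237 gaps between them, of a median of 78 bp (quartiles 35 and 244 bp). The widest gap was 3316 bp. The median combined score was 60.7 in split domains and 35.8 in the 258 with 1 replicate 1 peak, and the median widths were 1892 and 1421 bp. In replicate 1, which defines the split, the order of the scores was the other way. The median of the highest replicate 1 score was 594 in split domains and 634 in those with 1 replicate 1 peak. In the latter, the replicate 1 peak had a median width of 1148.5 bp and its midpoint lay a median of 93 bp from that of the domain.

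The 3 domains with most replicate 1 peaks were on chromosome III. The widest of all, 11720 bp on chromosome III from 321610 to 333329, held 17 replicate 1 peaks of at most 1440 bp, which covered 68.7% of it. Its nearest combined peak was 15239 bp away, so this domain stood alone. By contrast, those with 10 and 8 replicate 1 peaks, of 6729 bp from 13592286 and 3895 bp from 13588236, lay 155 bp apart near the right end of chromosome III. The 4 domains with 5 peaks were 3 on chromosome IV and 1 on chromosome II, among them the domain at 12021419 described above and one from 15079441 to 15082249, which was 2809 bp wide and scored 107.

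Replicate 2 peaks reached past the domains on both sides. The 418 domains with a single replicate 2 peak had a median width of 1464 bp, and that peak had a median width of 2894 bp. It extended a median of 382.5 bp beyond the left edge and 427 bp beyond the right. Some of these replicate 2 peaks also took in a neighbouring domain. In the 346 domains where the peak took in no other, its median width was 2654.5 bp. The median extensions were then 372 and 407.5 bp. Of the 452 domains, 412 (91.2%) lay wholly inside replicate 2 peaks and 56 (12.4%) wholly inside replicate 1 peaks. Among all combined peaks these shares were 49.96% and 4.79%. In 34 cases 1 replicate 2 peak took in 2 or more domains, up to 4.

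The widest domain differed in make-up between chromosomes. On chromosome II it was 5189 bp wide, from 13428910 to 13434098, and replicate 1 covered only 11.3% of it with 2 peaks, the higher at a score of 172, while replicate 2 covered all of it at 2782. On chromosome IV it was 5430 bp, from 14475678 to 14481107, and replicate 1 covered 86.6% with 1 peak. The widest on chromosome I (15060230 to 15071359), V (7916788 to 7925044) and X (16929355 to 16940038) were 11130, 8257 and 10684 bp, and replicate 1 covered 99.6%, 99.99% and 97.1% of them, with 1, 1 and 4 peaks. The replicates thus covered these 3 about equally, and the widest of chromosomes II and III unequally. All 6 were wholly covered by replicate 2.

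Domains often had close neighbours. Another combined peak lay within 500 bp of the edge of 235 domains (52.0%), where 31.8% of all combined peaks and 30.1% of narrower peaks had one. The median gap from an edge to the nearest other combined peak was 434 bp for domains and 1932 bp for narrower peaks. Short gaps were not particular to domains. Among narrower peaks the median was 340 bp for the 1596 in replicate 2 only and 1409.5 bp for the 308 in replicate 1 only. It was 1994.5 bp for the 984 in both and 3865 bp for the 2549 in neither. No gap in the list was below 43 bp. When combined peaks up to 500 bp apart were joined first, 675 regions met the limit.

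From one domain to the next, the median distance between midpoints was 49.3 kb to the nearer neighbour. Another domain lay within 10 kb of 139 domains (30.8%) and within 25 kb of 182 (40.3%). Joining midpoints up to 10 kb apart gave 58 runs that held these 139 domains. There were 42 runs of 2 domains, 11 of 3, 4 of 4 and 1 of 6. The other 313 domains stood alone. Narrower peaks are many more, so their distances to one another are not comparable.

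The 3 runs ranked first by number of domains, and then by shorter span, had no peak in replicate 2. The run of 6 covered 15.2 kb of chromosome I, from 10204058 to 10219244, with domains of 1143 to 4026 bp, all in replicate 1 only, and combined scores of 16.9 to 23.0. Replicate 1 had 5 peaks there, which covered 90.1% of the run. Another on chromosome I, from 4540346 to 4547751, held 4 domains over 7.41 kb, and replicate 1 covered 97.2% of it. The run on X, from 10361045 to 10369112, held 4 domains over 8.07 kb with replicate 1 coverage of 96.1%. In these stretches replicate 1 was nearly continuous and replicate 2 had 0 peaks.

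The other runs of 4 were both on chromosome III and were in both replicates. That from 13584185 to 13599014 near the right end was 1 replicate 2 peak of 15405 bp, with 24 replicate 1 peaks over 58.3% of its 14.8 kb. That from 10214263 to 10227686 had 2 replicate 2 peaks and 5 replicate 1 peaks, and its domains formed 2 pairs with an open stretch between them.

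**Figure D3:**
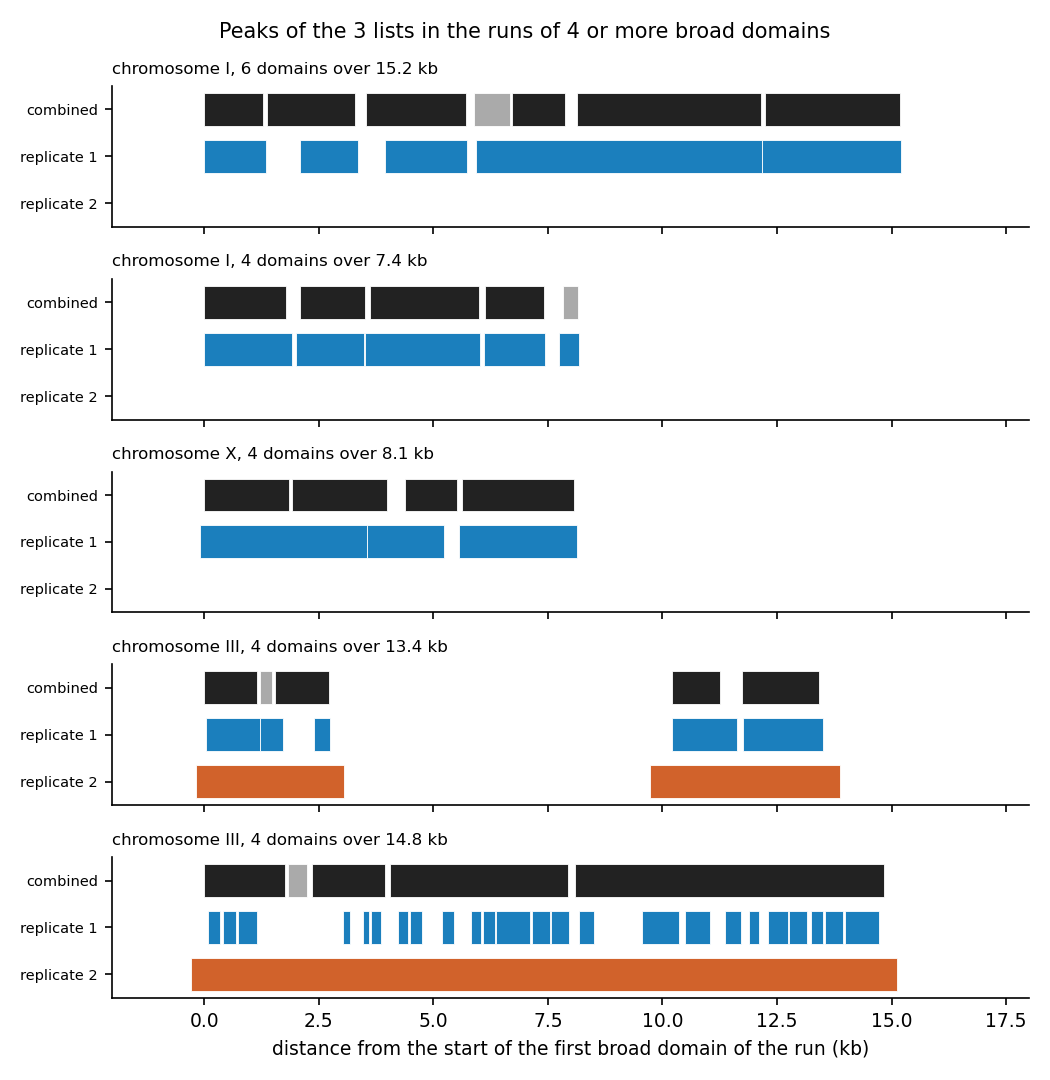
Peaks of the 3 lists in the 5 runs with 4 or more broad domains, by distance from the start of the first domain (x, kb). Broad domains are black, narrower combined peaks grey, replicate 1 peaks blue and replicate 2 peaks orange, and the upper 3 runs have no replicate 2 peak.

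Domains found in replicate 1 only were often neighbours of one another, a set that was chosen for description after its values were seen. Of these 31 domains, 21 (67.7%) lay in runs of 2 or more, where 139 of all 452 domains (30.8%) did. In the run on chromosome V from 14830174, just 1 of the 2 domains was of this kind. The 3 runs without replicate 2 described above held 14 of the 31. All 10 on chromosome I were in its 2 such runs. The 31 domains were a median of 1790 bp wide with a median combined score of 19.2, and replicate 1 covered a median of 99.9% of each. The strongest in replicate 1 were a pair on chromosome V, of 6663 bp from 17119929 to 17126591 and 3967 bp from 17128152 to 17132118, each with a replicate 1 score of 3100.

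Domains found in replicate 2 only were narrower, with a median width of 1244 bp and a median combined score of 13.9. None was wider than 2457 bp. That widest one lay on chromosome I from 13449672 to 13452128 and scored 1412 in replicate 2. The next 3 by width were on chromosome II, from 1423379, 5664584 and 5384472, with widths of 2245, 2157 and 2053 bp. The domains with no replicate peak were 3399 bp on chromosome I from 10268125 to 10271523 and 1086 bp on chromosome V from 5073852 to 5074937, with combined scores of 11.4 and 19.0. The midpoint of the first lay 52054.5 bp from that of the nearest domain, the last in the run of 6.

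The domains were spread over all 6 chromosomes, and X had the fewest. Per Mb of chromosome extent there were 5.59 domains on III, 5.37 on IV, 4.78 on I, 4.58 on II, 4.35 on V and 2.71 on X. The density on X was 0.554 times that on the autosomes for domains (log2 -0.85) and 0.546 times for narrower peaks (log2 -0.87). For peaks of 1 kb or more the log2 values of replicates 1 and 2 were -0.48 and -1.14, with a mean of -0.81 ± 0.47 (SD, n = 2). In the combined list the domains and the narrower peaks thus differed little. The limit kept 11.1% of replicate 1 peaks and 99.2% of replicate 2 peaks, so the SD above compares unlike parts of the lists. Within replicate 1 the log2 value was -0.48 for wide peaks and -0.80 for narrower ones. Wide peaks were 13.2% of its peaks on X and 10.9% on the autosomes. In replicate 2 these shares were 99.4% and 99.1%, which left little room for a difference.

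The share of peaks that were broad was 7.77% on X (48 domains beside 570 narrower peaks) and 7.66% on the autosomes. The exact 95% binomial interval on X, 5.78 to 10.2%, took in the values of all 5 autosomes, which ran from 6.46% on I to 9.17% on IV. This interval counts each peak as independent, although 139 of the 452 domains lay in runs, so it is no test of X. Among peaks found in both replicates the share on X minus that on the autosomes was -1.45 percentage points, a reversal of the difference of 0.102 in the whole list. On IV the domains also had the highest median combined score, 70.4, against 32.3 to 40.8 on the other 5 chromosomes.

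**Figure D4:**
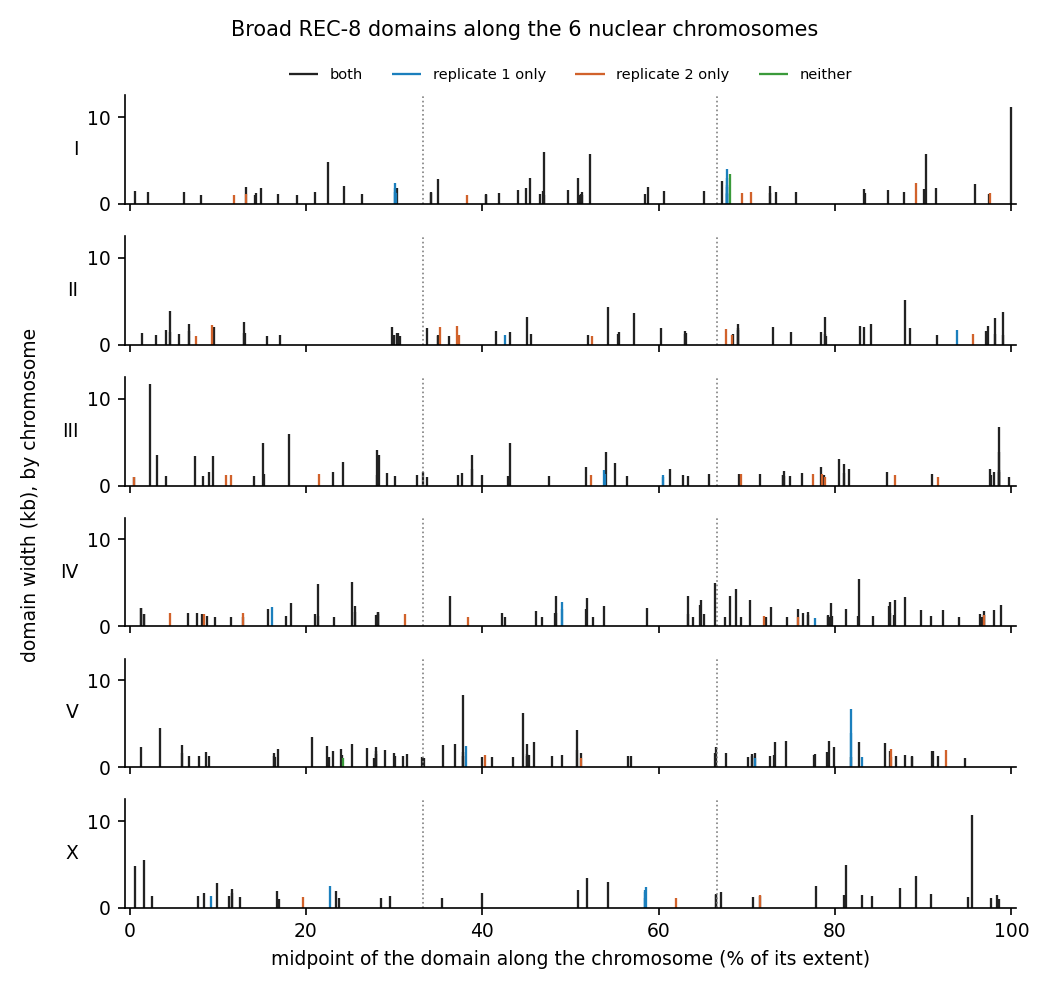
Each line is 1 of the 452 broad domains at its midpoint along the chromosome (x, % of the extent), its height is the width (y, kb) and its colour shows the replicate lists it overlapped. Dotted lines cut each chromosome into 3 equal parts, and the 31 domains in replicate 1 only (blue) sit close together at several places.

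Worm autosomes have gene-dense centres with little recombination and arms with more recombination and repeats, and the domains were set against this layout. With each chromosome cut into 3 equal parts, 71.0% of domains and 64.3% of narrower peaks lay in the outer parts. The log2 ratio of outer to middle density was positive for domains on 5 of 6 chromosomes, from 0.13 on II to 0.63 on IV, and was -0.09 on I. The mean was 0.30 ± 0.27 (SD over 6 chromosomes), while narrower peaks had -0.12 ± 0.18 with 1 of 6 positive. Both means include X, which is not an autosome. Its ratio was 0.58 for domains and 0.21 for narrower peaks, the 1 positive value among the latter. Broad peaks were 8.41% of the combined peaks in the outer parts and 6.32% in the middle. The outer share was the higher on all 6 chromosomes, by 0.31 percentage points on I and up to 4.32 on IV, where the right part had 12.8%.

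This difference in share was not seen in the replicate 1 list, and replicate 2 could not show it. Replicate 1 peaks of 1 kb or more were denser in the outer parts on 5 of 6 chromosomes, with a mean log2 ratio of 0.17 ± 0.19 (SD over 6 chromosomes), but so were its narrower peaks, at 0.24 ± 0.39. In replicate 1 the share of peaks of 1 kb or more was 11.1% in the outer parts and 11.2% in the middle, and the outer share was the higher on 2 of 6 chromosomes. In replicate 2 nearly all peaks were that wide, 98.9% and 99.7%, so its share has no room for such a difference. Cutting the chromosomes into 4 parts gave 8.26% in the outer and 7.16% in the inner 2 parts of the combined list, with the outer higher on 4 of 6. With 3 parts it was higher on 5 of 6 at a limit of 1500 bp and on 4 of 6 at 2000 bp. With peaks within 500 bp merged it was 5 of 6, and in the higher-scored 50% it was 4 of 6. Among peaks in both replicates it was 5 of 6, with the lowest chromosome at -5.01 points.

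**Figure D5:**
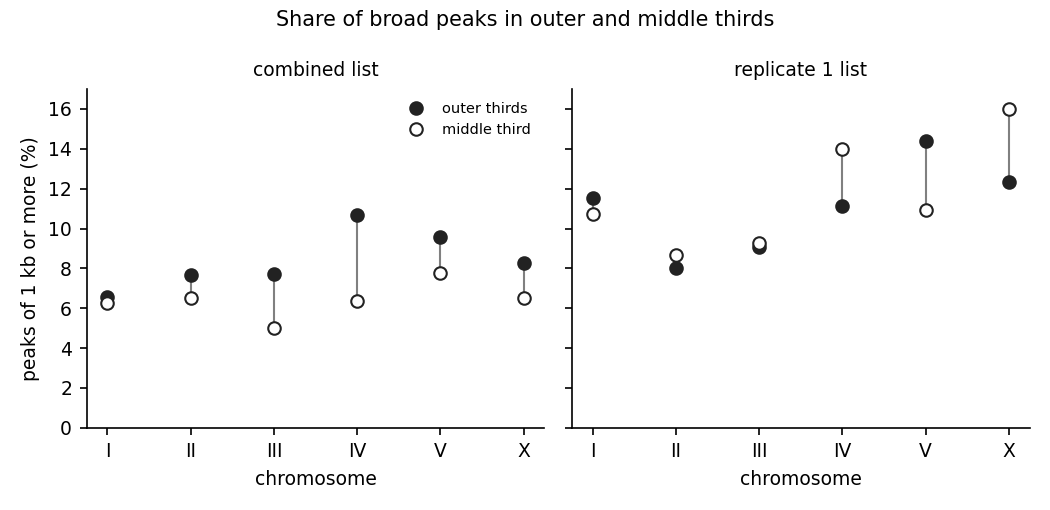
Share of peaks that are 1 kb or wider (y, %) in the outer parts (filled) and the middle part (open) of each chromosome cut into 3, in the combined list (left) and the replicate 1 list (right). The filled points are the higher on all 6 chromosomes in the combined list and on 2 of 6 in replicate 1.

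In windows of 1 Mb the domains were uneven, with a mean of 4.39 and a range of 0 to 12. The fullest, with 12 each, were from 10 to 11 Mb on chromosome I, which holds the run of 6, and from 13 to 14 Mb on chromosome IV. Of 103 windows 5 held no domain, and these had 27 to 42 narrower peaks each. The longest stretches between domains were 1992 kb on V from 11889878 to 13881678, 1954 kb on II from 2600257 to 4553913 and 1928 kb on X from 7079188 to 9007132. They held 94, 78 and 61 narrower peaks, so REC-8 peaks were present in them. On chromosomes I, III and IV the longest stretches were 1162, 805 and 891 kb. These windows and stretches were chosen after the values were seen.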

How the data were processed

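The data were the peak lists of 2 REC-8 ChIP libraries and 1 combined list for the series. The submitters' processing notes name the aligner BWA and the build ce10, and per the file headers positions follow WormBase WS220. The source column of the deposited files names MACS for the replicates and MACS v2 for the combined list. The deposited score of each peak was taken to be the value of that caller. Use of the inputs, filters, versions and the way of combining are not given in any source used here, and they set which peaks are joined and so how wide they are.

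Widths, overlaps of at least 1 bp, midpoints and runs were computed from the deposited starts and ends with Python 3.11.15, numpy 2.4.6, pandas 2.3.3 and scipy 1.17.1, drawn with matplotlib 3.10.9, and checked on planted data. Chromosome extents were the largest peak ends of the 3 lists, 100.3 Mb in all. Mitochondrial peaks were left out. No test was run. The exact (Clopper-Pearson) interval covers counting error only. Alternatives were width limits of 1500 and 2000 bp, peaks within 500 bp merged, the higher-scored 50% and neighbours within 25 kb. Others were midpoints or an overlap of 50% of the shorter peak, 4 parts per chromosome and each replicate list left out. The combined list itself was not remade. Added after seeing the data were peaks in both replicates only and the share of broad peaks in the outer parts.

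Named were the widest domain of each chromosome, the 5 with most replicate 1 peaks, the 5 widest without a replicate 1 peak, up to 5 with no replicate peak, the 5 highest-scored others, the 3 on each side of the limit and the 3 largest runs. The members, measures and alternatives were chosen with earlier results of these data known. Genes and sequences were not assigned, since no WS220 annotation or genome was used here.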

Additional observations from a re-analysis of the deposited data

Results flagged for a closer look

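Peaks of at least 1 kb were also present outside the nuclear chromosomes, which the comparisons did not use. On the mitochondrial chromosome the combined list had 3 peaks of 1 kb or more, the widest of 6723 bp, and replicate 1 had 1 peak of 13376 bp. Replicate 2 had 0 mitochondrial peaks. The inputs were not analysed here, and the source of this signal was not tested.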

How the results depend on the processing

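Of 76 alternatives to 12 results, 37 left the value within its interval or SD or, for counts, within 1.5 times. Another 36 moved the value and 3 changed its sign, and 15 of the 76 were chosen after seeing the data. For the arm log2 ratio, moved meant outside the SD between the 2 replicate lists, 0.056. All its alternatives lay within the larger SD over chromosomes, 0.27. The X to autosome log2 ratio was judged by the SD of 0.47 between the replicate lists, which compares unlike parts of them. That its alternatives stayed within this SD therefore says little. At width limits of 1500 and 2000 bp, there were 219 and 131 domains, 96.3% and 95.4% overlapped replicate 1, and 46.9% and 52.8% were split in replicate 1 and 0% in replicate 2. Another domain lay within 10 kb of 21.0% and 11.5%, and the outer share exceeded the middle by 0.97 and 0.38 points. At 1500 bp 88.1% overlapped both replicates. At 2000 bp 89.3% overlapped replicate 2 and the arm log2 ratio was 0.19. With peaks within 500 bp merged there were 675 domains, of which 74.96% overlapped replicate 1, 69.8% both and 22.4% had another within 10 kb. Of those with a peak of replicate 1 or 2, 44.7% and 2.10% were split in it, and the arm ratio was 0.24. By midpoints, 75.7% were in replicate 1 and 68.6% in both. An overlap of 50% of the shorter peak left 0% split in replicate 2, and 25 kb gave 40.3% with a neighbour. With 4 parts the arm ratio was 0.054 and the share difference 1.11 points. Among peaks in both replicates, 25% had a neighbour, the outer share exceeded the middle by 4.07 points, and X minus autosomes reversed to -1.45 points. The outer minus middle share reversed to -0.10 points in the replicate 1 list. It was -0.81 in the replicate 2 list, where nearly all peaks are 1 kb or wider, so this change of sign does not bear on the difference. The arm ratio of the replicate lists averaged 0.13, and leaving out a replicate gave 0.091 to 0.171. Taken 1 list at a time, replicates 1 and 2 had 218 and 2009 wide peaks and overlapped 90.0% and 92.7% of domains. That is a looser measure than the 83.2% in both, and the combined list was not remade without a replicate. The cause of the differences between settings was not tested. No paired analysis was possible because the results come from no test. Depth is unknown, and 2 replicates limit every comparison of lists.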
